A study of Mus musculus with 10 samples.

Results

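The 200 most abundant long intergenic noncoding RNAs (lincRNAs) of the mouse neural retina were examined, and their levels were compared between retinas exposed to high-intensity light (LD) and to normal light (NL). The members were chosen by their mean FPKM (fragments per kilobase of transcript, scaled to the reads of the library) over all 10 retinas, out of the 4915 genes annotated as lincRNA on chromosomes 1 to 19 and 54532 genes in all. Each group held 5 retinas of 2-month-old BALB/c albino mice, a strain sensitive to light. Both groups had spent 12 h in the dark beforehand. The NL retinas then received 200 lux and the LD retinas 15000 lux for 1 day, and RNA was extracted from the whole neural retina without sorting of cells. These albino mice are described as homozygous for the albino allele of Tyr and as Rpe65+/+, and no sex was given.

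LincRNAs are transcribed by RNA polymerase II, and many but not all are spliced and polyadenylated like mRNAs, but they carry no long reading frame. Some are found in nuclear bodies, such as Malat1 in nuclear speckles and Neat1 in paraspeckles. Others are processed into microRNAs (miRNAs) or small nucleolar RNAs. In the retina, several are transcribed beside genes of photoreceptor and neuronal identity, and a few were first described as retinal noncoding RNAs. Most are named by a number or clone and not by a function. Of the 200, 98 bore a Gm number, 67 a Rik clone name and 9 the name of a genomic clone. Some of these have described roles, as given below.

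Some members are precursors or neighbours of miRNAs, and the mature sequences are shown because they identify what these transcripts carry. Rncr4, retinal noncoding RNA 4, lies beside the miR-183/96/182 cluster, on the opposite strand, and is known for regulating the maturation of that cluster. The 3 guide strands, on the minus strand at chr6:30169711-30169732, chr6:30169506-30169528 and chr6:30165962-30165986 (RefSeq, GRCm38.p6), start 3161 to 6907 bases from Rncr4. Gm3764 and C130071C03Rik each hold a copy of miR-9 on their own strand, at chr3:88215613-88215635 and chr13:83738821-83738843, both on the plus strand. Capitals mark the seed, bases 2 to 8, which pairs with target mRNAs.
miR-183-5p: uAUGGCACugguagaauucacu
miR-96-5p: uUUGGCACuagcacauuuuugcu
miR-182-5p: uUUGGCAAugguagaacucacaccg
miR-9-5p: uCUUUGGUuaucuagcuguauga
Each of these seeds differs from the others. Besides the hosts of miR-124 described below, 11 members held a RefSeq miRNA on their own strand, among them Meg3 with miR-770 and 6720427I07Rik with let-7d, which has the seed of the let-7f and let-7a that follow within 417 bases.
let-7d-5p: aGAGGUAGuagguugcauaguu
miR-770-5p: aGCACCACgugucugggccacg

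Promoter windows (250 bases before to 50 after the start site, RefSeq, GRCm38.p6) were matched for 80 of the 200 members. Those of a member that rose and of one that fell are shown because each started at the annotated first base of the member and held a motif of a factor active in stressed or photoreceptor cells. The window of D730003I15Rik (plus strand, chr1:191224204-191224503) held 1 AP-1 motif, in capitals, and 1 E-box (CACGTG), which is not marked. The window of A930031H19Rik (minus strand, chr4:131010425-131010724) held 1 CRX motif, in capitals as the reverse complement GGATTA.
D730003I15Rik: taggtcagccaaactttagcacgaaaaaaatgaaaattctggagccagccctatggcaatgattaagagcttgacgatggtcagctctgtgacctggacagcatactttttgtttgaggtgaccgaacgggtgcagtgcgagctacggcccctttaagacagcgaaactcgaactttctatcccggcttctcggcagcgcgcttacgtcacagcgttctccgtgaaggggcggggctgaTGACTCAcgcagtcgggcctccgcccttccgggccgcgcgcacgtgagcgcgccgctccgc
A930031H19Rik: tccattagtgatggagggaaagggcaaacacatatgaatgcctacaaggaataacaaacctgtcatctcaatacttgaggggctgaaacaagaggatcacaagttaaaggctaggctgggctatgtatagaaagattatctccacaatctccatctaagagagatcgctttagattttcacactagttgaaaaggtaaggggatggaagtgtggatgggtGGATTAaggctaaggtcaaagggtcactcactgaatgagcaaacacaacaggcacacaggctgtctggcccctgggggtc
On either strand, the AP-1 motif (TGACTCA or TGAGTCA) was in 3 of the 80 windows (3.75%) and in 5.20% of all 32851 RefSeq promoters. The CRX motif (TAATCC) was in 12 (15%) against 7.06%, the cyclic AMP response element (TGACGTCA) in 5 (6.25%) against 1.79%, and the E-box (CACGTG) in 13 (16.25%) against 7.15%. The interferon response element was in 1 (1.25%) against 3.44%, the GAS element (TTCNNNGAA) in 7 (8.75%) against 8.30%, and the TATA box (TATAAA) in 8 of them, against 13.6%. The GAS letters can overlap those of the other motifs. By direction, AP-1 was in 1 of the 5 windows of members that rose and in 0 of the 7 of members that fell. CRX was in 0 and 2, the cyclic AMP response element in 1 and 0, and the E-box in 3 and 2. GAS was in 0 and 2, TATA in 0 and 1, and the interferon response element in 0 of either. With so few windows no link of a motif to a direction is read from these. A match is a description of the letters and not a bound site.

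The libraries held 18965090 to 26832535 reads. The LD retinas did not spread evenly: LD-4 with LD-6, LD-1 with LD-7 and, among controls, NL-5 with NL-7 were closer to each other than other retinas were, with a mean squared difference of 2.99 to 4.35 times counting noise against 15.6 to 56.9 for the other pairs of a group. The labels do not say whether such pairs came from 1 animal. Rod markers fell in 8 of 8 genes, to a sum of 1192 to 2409 FPKM from 8068 to 9881 FPKM, with LD-4 (1192) and LD-6 (1271) lowest. Of the 7 cone markers 4 fell, and of the 8 myeloid markers 6 rose, from a sum of 18.2 to 30.3 FPKM to at least 42.4 FPKM. All 10 interferon-response genes rose, from 12.9 to 18.2 FPKM to 348 to 395 FPKM. No marker of bipolar cells (6), of amacrine and ganglion cells (8), of pigment epithelium (6), of endothelium (5) or of blood (4 tested, with Hba-a2 listed at 0) passed both thresholds, and of the 6 Müller glia markers 1 fell. In whole tissue, fewer cells of a type and less RNA per cell cannot be told apart, and the part of these shifts in the lincRNA values was not tested.

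Levels of the members spanned 2.69 to 698 FPKM, with a median of 5.70 FPKM. Since the mean chose the members, these levels are a description. Only 4 members reached 100 FPKM, 19 reached 20 FPKM and 49 reached 10 FPKM. Malat1 alone held 24.5% of the summed mean and ranked 14th of all genes, and the 10 most abundant members held 51.9%. The members just inside the limit were Gm11734 (2.72 FPKM), 1700022N22Rik (2.70 FPKM) and 2010015M23Rik (2.69 FPKM), and those just outside were Gm9801 (2.66 FPKM), 1700110C19Rik (2.63 FPKM) and Gm43660 (2.60 FPKM). Their length was 243 to 20771 bases, with a median of 1668.5, and 42 of the 199 found in GENCODE M21 had a single exon. All 200 passed the filter on low values, and 192 had at least 10 reads in every retina.

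The summed FPKM of the members was 3095 ± 151 (SD, n = 5) in NL and 2600 ± 244 (n = 5) in LD, and the ranges of 3005 to 3355 and 2321 to 2821 did not overlap. Without Malat1 the sums were 2392 ± 95.8 and 1907 ± 230 FPKM. The mean was lower after LD in 149 members, by 668 FPKM in all, and higher in 51, by 173 FPKM in all. Mir124a-1hg, Mir124-2hg, Rncr4 and A330094K24Rik, with the 4 largest decreases, made up 38.5% of the lost FPKM. The largest gain was that of Meg3, by 26.7 FPKM. The coefficient of variation was larger in the LD group (median 19.6%) than in the NL group (13.7%).

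The question addressed was which transcripts change in the retina after 1 day of damaging light. Past an adjusted p of 0.01 and a change of more than 2-fold, in the limma fit across all 24508 genes tested, 33 members differed (16.5%, against 6.51% of all genes). Of these, 12 rose (6.0%, against 4.13% of all genes) and 21 fell (10.5%, against 2.37%). At an adjusted p under 0.05 and any fold, 19 were higher (9.5%, against 14.5% of all genes) and 71 lower (35.5%, against 13.4%). The groups did not overlap with LD above NL in 18 members (9.0%, against 11.8%) and with LD below NL in 54 (27.0%, against 10.6%). The share of members that fell was thus above the background by each of these measures. The share that rose was above the background by the first and below it by the others. The background was not matched to the members in abundance, and the choice of the members bears on both shares, as described below. The remaining 110 members did not pass an adjusted p of 0.05.

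The median log2 fold change of the members was -0.22, against -0.01 for all genes, and 148 members (74.0%) lay below 0, against 51.4% of all genes. The deposited values carry a scaling factor per retina. Without it the median of all genes moved up by 0.12 on the log2 scale, the median of the members was -0.09, and 127 members (63.5%) lay below 0 against 36.8% of all genes. The members lay below all genes by 0.20 to 0.22 in either case and under quantile normalization or limma-voom. The other 1058 autosomal lincRNAs tested had a median of -0.03, with 29 higher (2.74%) and 39 lower (3.69%) past both thresholds. Of 15464 protein-coding genes, 872 were higher (5.64%) and 288 lower (1.86%).

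The choice of the members bears on these counts. A lincRNA that enters the 200 only through its LD mean had to be higher in LD: 12 members were of this kind, and 8 of them were among those that rose. These 8 were 4930434O05Rik, 9330175E14Rik, CT025671.4, Gm47887, Gm45619, Gm38413, Neat1 and Gm45605, so their place among the members rests on the change itself. 4930434O05Rik and 9330175E14Rik also passed the filter on low values only through the LD retinas. Likewise 18 entered only through the NL mean, and 13 of them were among those that fell, such as Gm33843, Gm48505 and A930031H19Rik. Of the 170 that are among the top 200 by both means, 4 rose (2.35%, below the share of all genes) and 8 fell (4.71%, above it), although a place in both rankings in turn leaves out members that moved far. No excess of members that rose is therefore read from these counts. The share of all members that fell, 10.5%, likewise rests in part on those that entered only through the NL mean. Averaging the closest pairs of retinas left 9 that rose and 14 that fell, and leaving out any 1 retina gave 10 to 12 and 17 to 26.

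**Figure D1:**
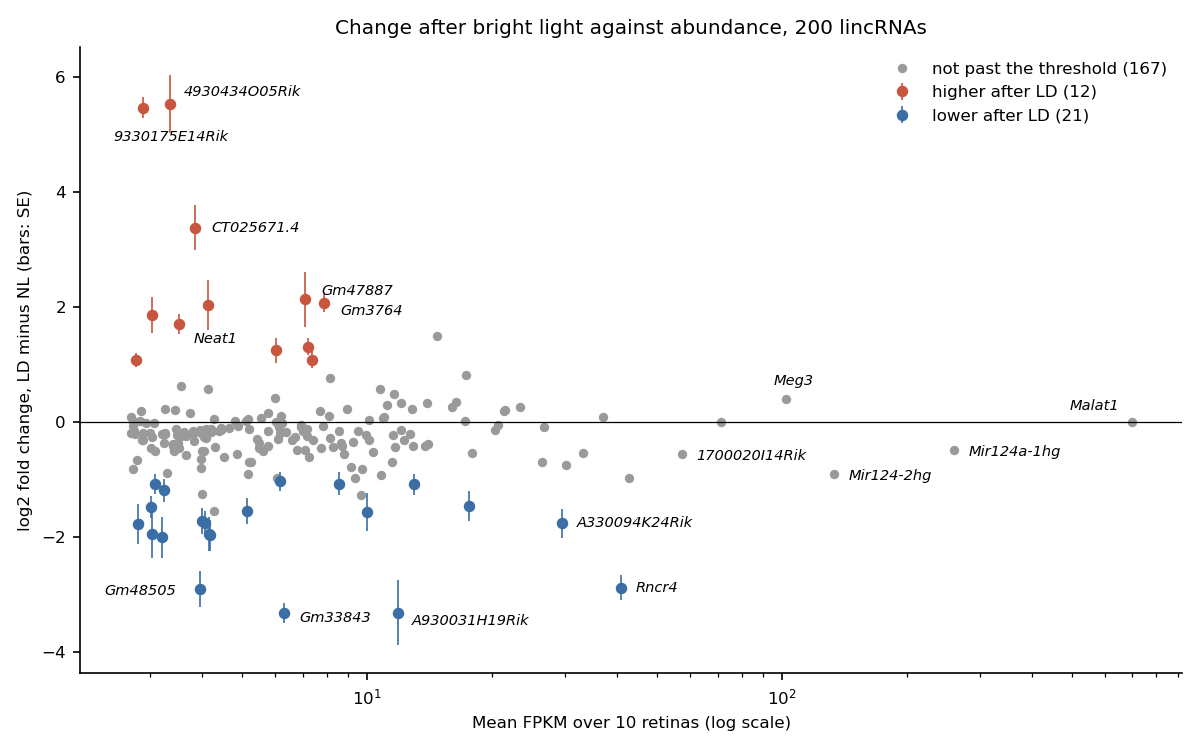
The log2 fold change of each of the 200 lincRNAs (LD minus NL, y axis, with SE for those past both thresholds) is plotted against its mean FPKM (x axis, log scale). The 12 that rose all had a mean under 10 FPKM, whereas Rncr4 and A330094K24Rik fell among the 20 most abundant, and Malat1 lay at 0.

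By abundance, none of the 50 most abundant members rose past both thresholds and 6 fell, where 4.13% and 2.37% of all genes did. Of ranks 51 to 100, 5 rose and 3 fell, of ranks 101 to 150, 2 rose and 6 fell, and of ranks 151 to 200, 5 rose and 6 fell. Among the 20 most abundant, 2 were higher and 9 lower at an adjusted p under 0.05, where 14.5% and 13.4% of all genes were. The median log2 fold change was -0.18, -0.21, -0.25 and -0.22 in the 4 ranks of 50, so the shift below 0 was of like size at each level of abundance.

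Malat1, the most abundant, showed no difference past the threshold. It measured 578, 784, 709, 893 and 555 FPKM in the NL retinas and 630, 680, 636, 718 and 799 FPKM in the LD retinas (listed here and below in the order of NL retinas 1, 4, 5, 7 and 8 and LD retinas 1, 4, 6, 7 and 8). The groups overlapped throughout, with a log2 fold change of -0.01 ± 0.15 (SE, adjusted p = 0.986). Quantile normalization alone moved it to 0.67 (adjusted p = 0.00243), a value that no other setting gave. The mouse Norad transcript 2900097C17Rik, which binds Pumilio proteins, was the steadiest of the leading members at 71.7 ± 3.10 FPKM in NL and 71.3 ± 4.24 FPKM in LD (log2 fold change -0.01 ± 0.05, adjusted p = 0.921).

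Host transcripts of the neuronal miRNA miR-124 were the most abundant members after Malat1. Mir124a-1hg, also known as retinal noncoding RNA 3, measured 304, 263, 299, 316 and 324 FPKM in the NL retinas and 262, 160, 179, 253 and 234 FPKM in the LD retinas. The highest LD retina lay just under the lowest NL retina, and the log2 fold change was -0.49 ± 0.14 (adjusted p = 0.0243). Mir124-2hg measured 153, 170, 193, 191 and 165 FPKM in the NL retinas and 101, 83.7, 88.7, 96.5 and 95.6 FPKM in the LD retinas. Every LD retina was far below every NL retina, with a log2 fold change of -0.90 ± 0.08 (adjusted p = 1.79e-05), which is short of 2-fold.

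Meg3, a maternally expressed imprinted transcript, was the more abundant of the pair of members that were higher among the 20 most abundant. It measured 71.7, 79.2, 91, 104 and 98.9 FPKM in the NL retinas and 109, 116, 121, 112 and 121 FPKM in the LD retinas, so that the groups were separate but close (log2 fold change 0.39 ± 0.10, adjusted p = 0.0122). The other was 6330403K07Rik, with a log2 fold change of 0.18 ± 0.05 (adjusted p = 0.0289). 1700020I14Rik, the mouse Cyrano transcript, which binds miR-7, fell from 68.2 ± 3.08 to 46.7 ± 6.27 FPKM (log2 fold change -0.55 ± 0.09, adjusted p = 0.000802). Gm15706, of unknown function, fell from 56.4 ± 6.71 to 29.4 ± 7.10 FPKM (log2 fold change -0.97 ± 0.16, adjusted p = 0.00123). It crossed 2-fold when LD-1, LD-7, LD-8, NL-4 or NL-8 was left out, with values down to -1.05.

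**Figure D2:**
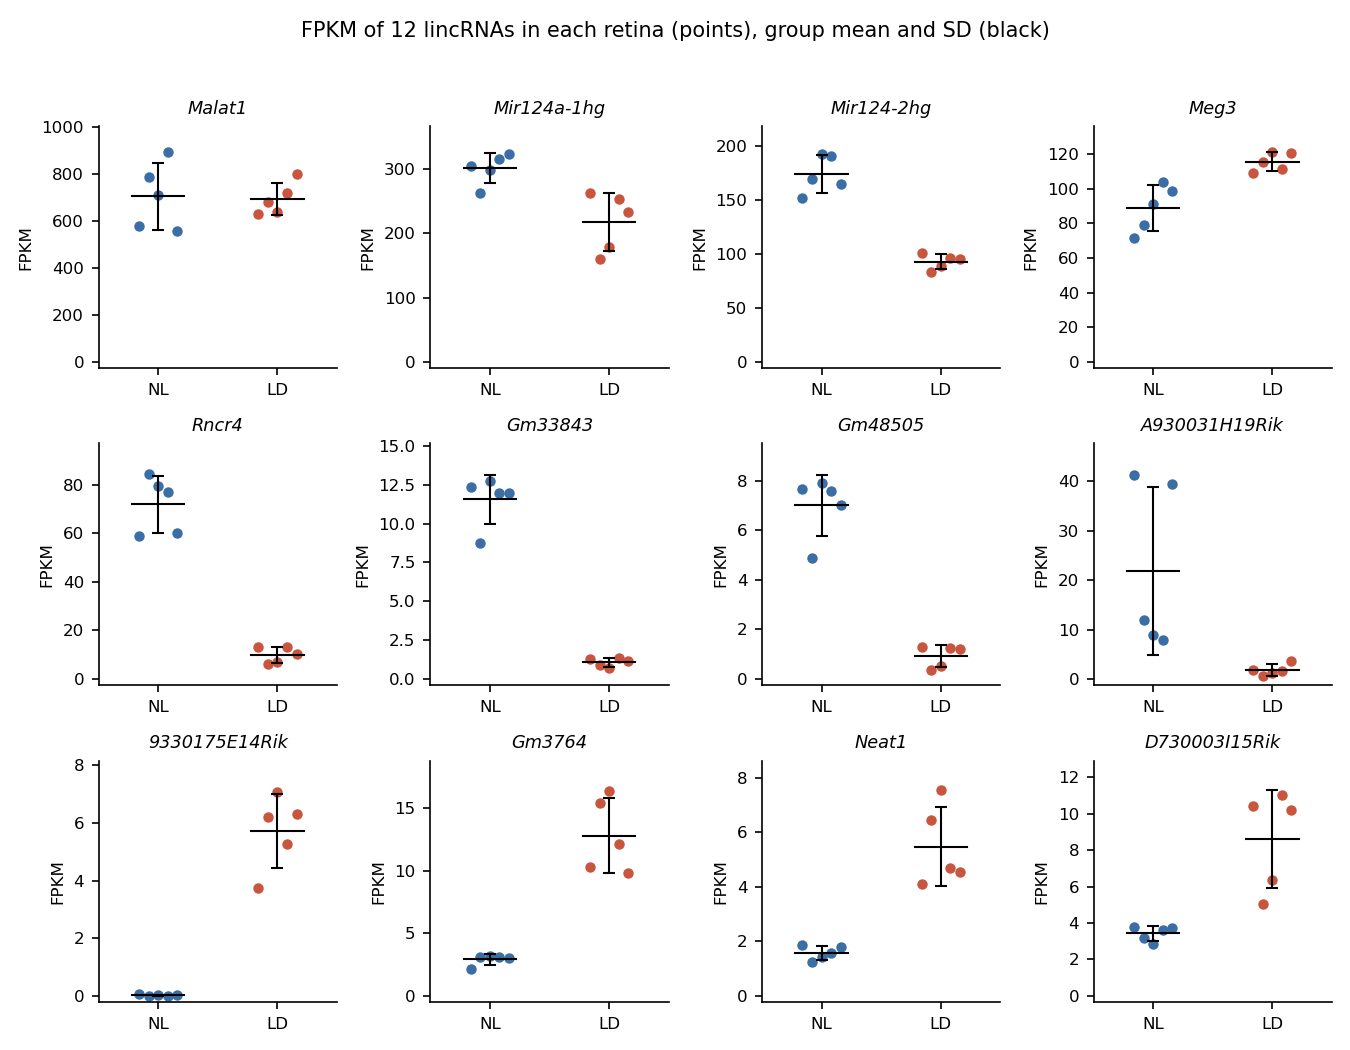
FPKM (y axis, from 0) of 12 lincRNAs in each of 5 NL and 5 LD retinas (points), with the group mean and SD in black. Rncr4, Gm33843, Gm48505 and A930031H19Rik were lower in all LD retinas than in any NL retina, 9330175E14Rik, Gm3764, Neat1 and D730003I15Rik were higher in all, and Malat1 overlapped.

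Of the abundant members, Rncr4 fell the most. It measured 59, 84.3, 79.4, 77 and 60 FPKM in the NL retinas and 13.3, 6.25, 7.12, 13 and 10.2 FPKM in the LD retinas. The highest LD retina was far below the lowest NL retina, and the log2 fold change was -2.89 ± 0.22 (adjusted p = 5.95e-06), a 7.20-fold lower mean. Mature miRNAs of the neighbouring cluster were not measured here. A330094K24Rik, of unknown function, fell from 45 ± 3.93 to 14.1 ± 5.58 FPKM (log2 fold change -1.76 ± 0.25, adjusted p = 0.000445), and A930006I01Rik from 25.3 ± 1.61 to 9.85 ± 4.28 FPKM (-1.47 ± 0.26, adjusted p = 0.00197). In both, LD-4 and LD-6 were the lowest retinas.

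Gm33843 and Gm48505 lie on the same strand with overlapping gene bodies and no shared exon base, 21274 and 93023 bases from Btg1, an antiproliferative gene. Gm33843 measured 12.4, 8.77, 12.8, 11.9 and 12 FPKM in the NL retinas and 1.28, 0.904, 0.683, 1.34 and 1.18 FPKM in the LD retinas. Gm48505 measured 7.67, 4.87, 7.91, 7.58 and 7 FPKM in the NL retinas and 1.27, 0.364, 0.528, 1.25 and 1.19 FPKM in the LD retinas. Both fell in all LD retinas, with log2 fold changes of -3.33 ± 0.17 (adjusted p = 4.85e-07) and -2.91 ± 0.31 (adjusted p = 7.25e-05), while Btg1 had a log2 fold change of -0.13 (adjusted p = 0.134). Gm45151 and 4732496C06Rik, which follow Nucb2 on the same strand 1109 bases apart, fell together too, with log2 fold changes of -1.04 ± 0.17 (adjusted p = 0.00115) and -1.09 ± 0.17 (adjusted p = 0.000945). Nucb2, a calcium-binding protein gene, had a log2 fold change of -0.61 (adjusted p = 0.00117).

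A930031H19Rik, whose promoter window is shown above, was the most uneven of those that fell. It measured 41.3, 11.8, 8.87, 7.81 and 39.4 FPKM in the NL retinas and 1.92, 0.705, 1.15, 1.72 and 3.73 FPKM in the LD retinas. NL-1 and NL-8 stood apart from the other NL retinas, yet all LD retinas were lower than these too (log2 fold change -3.32 ± 0.56, adjusted p = 0.0014, 0.0139 with the closest pairs averaged). It shared 10.1% of its exon bases with Gm12973 on the opposite strand, and the library kit does not mark strand.

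The other members that fell had log2 fold changes from -2.01 to -1.07. Gm30684 (-2.01 ± 0.36, adjusted p = 0.00187), F630040K05Rik (-1.95 ± 0.30, adjusted p = 0.000681), Gm36677 (-1.78 ± 0.34, adjusted p = 0.00294) and A430105J06Rik (-1.75 ± 0.20, adjusted p = 0.000103) were each lower in all LD retinas. With the closest pairs of retinas averaged, Gm30684 and Gm36677 had adjusted p values of 0.0256 and 0.0110. Gm20139 (-1.97 ± 0.27, adjusted p = 0.000349) fell from 6.67 ± 1.34 to 1.72 ± 0.682 FPKM, and its nearest coding gene Tnfaip3, an inhibitor of NF-κB signalling 126093 bases away, fell by 2.30 on the log2 scale. Gm40477 (-1.55 ± 0.23, adjusted p = 0.00061) moved against its nearest coding gene, the immediate early gene Fos (2.14, adjusted p = 9.82e-05, 37640 bases away). Gm29442 was the only member past both thresholds whose groups overlapped (NL 2.21 to 6.16 FPKM, LD 0.556 to 2.49 FPKM). In 17 of the 21 members that fell (81.0%), LD-4 and LD-6 were the lowest pair of LD retinas, and in 16 (76.2%) LD-1 and LD-7 were the highest pair. Over all 200 members the same pairs were lowest in 93 (46.5%) and highest in 109 (54.5%), and over all genes tested in 22.7% and 21.6%, so this order of the LD retinas was common among the members and not limited to those that fell.

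**Figure D3:**
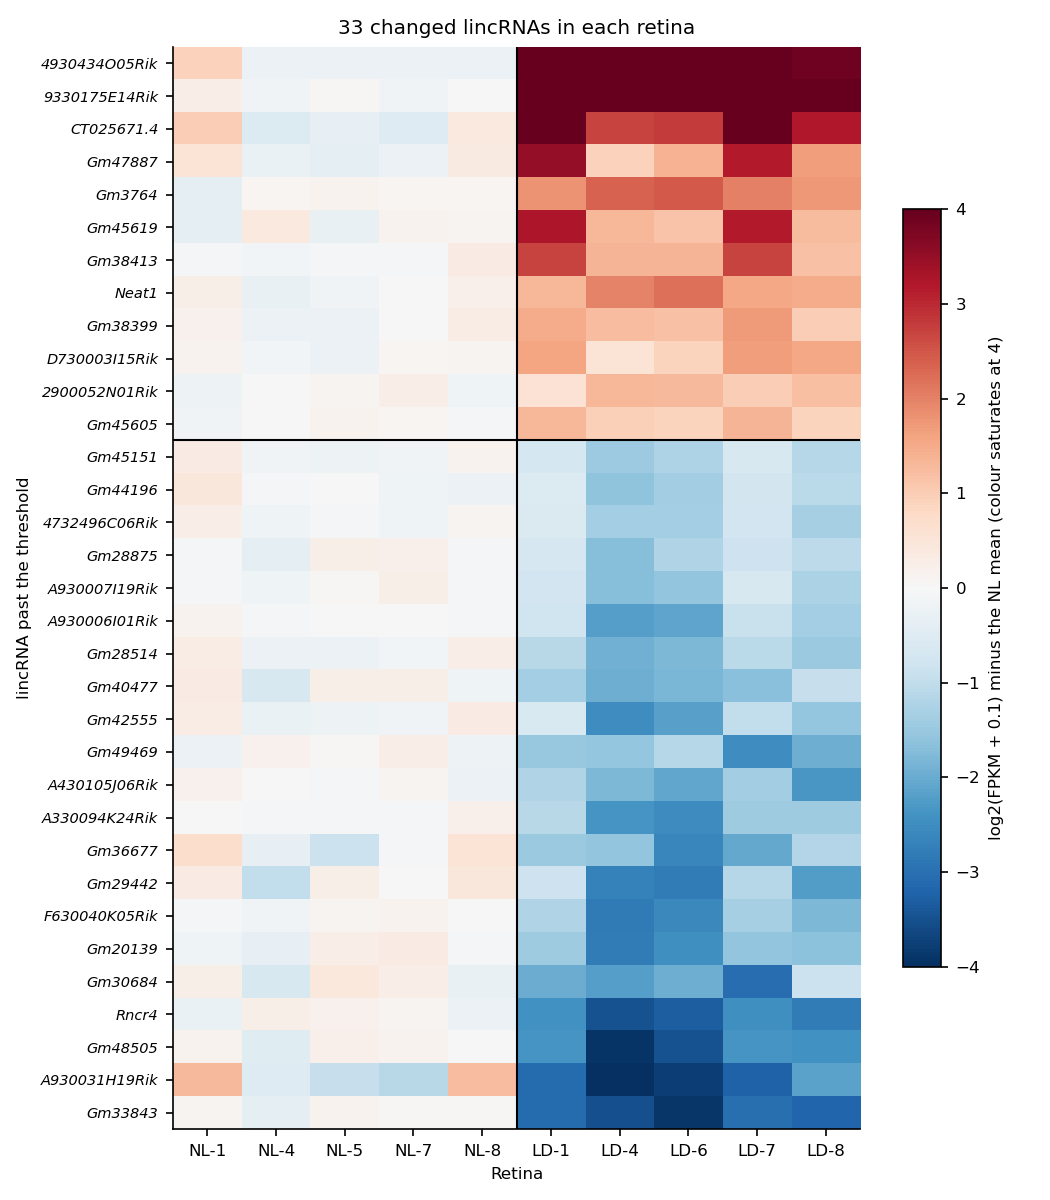
Each row is 1 of the 33 lincRNAs past both thresholds and each column 1 retina, with colour giving log2(FPKM + 0.1) minus the mean of the NL retinas (red higher, blue lower, saturating at 4). The 12 that rose are above the line and the 21 that fell below it, and among the latter LD-4 and LD-6 are mostly darker than LD-1 and LD-7.

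The 12 members that rose ranked from 68 to 193 by abundance. 4930434O05Rik, of 387 bases and 1 exon, had 1 read in NL-1 and 0 in the other NL retinas against 101, 34, 38, 108 and 14 reads in the LD retinas. On summed reads the ratio was 289 (95% exact interval 51.5 to 11471, which covers counting error only). Its fitted log2 fold change of 5.53 (adjusted p = 2.33e-05) depends on the pseudocount, being 8.30 with a pseudocount of 0.01 and 2.67 with 1. LD-1 and LD-7 held most of its reads.

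9330175E14Rik lies across Nlrc5, a regulator of MHC class I genes, on the opposite strand. It measured 0.0551, 0.0159, 0.0332, 0.0159 and 0.0261 FPKM in the NL retinas and 3.76, 6.21, 7.08, 5.29 and 6.32 FPKM in the LD retinas. It was near 0 in every NL retina, with 2 to 7 reads, and had 544 to 940 reads in the LD retinas (log2 fold change 5.47 ± 0.19, adjusted p = 2.96e-08, 7.25 with a pseudocount of 0.01 and 2.69 with 1). It too entered the members and passed the filter only through the LD retinas, so its p value is no independent support of a change. The log2 fold change of Nlrc5 was 5.49 ± 0.16 (adjusted p = 1.06e-08). Both genes share 1.31% of the exon bases of 9330175E14Rik, and without strand their reads cannot be told apart there or over introns. CT025671.4, which overlaps no gene, measured 1.14, 0.327, 0.4, 0.341 and 0.73 FPKM in the NL retinas and 11.4, 3.95, 4.22, 10.4 and 5.61 FPKM in the LD retinas (log2 fold change 3.38 ± 0.39, adjusted p = 0.000106).

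Gm3764, which holds the miR-9 copy shown above, measured 2.2, 3.09, 3.19, 3.09 and 3.07 FPKM in the NL retinas and 10.3, 15.4, 16.4, 12.1 and 9.84 FPKM in the LD retinas. The LD retinas lay at 9.84 FPKM or more and the NL retinas at 3.19 FPKM or less (log2 fold change 2.08 ± 0.16, adjusted p = 6.8e-06), and here LD-4 and LD-6 were the highest. C130071C03Rik, with the other copy of the same miRNA, measured 13.6 ± 0.986 FPKM in NL and 11.8 ± 1.30 FPKM in LD (log2 fold change -0.21 ± 0.08, adjusted p = 0.0777). The difference between these was not tested.

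Neat1 measured 1.86, 1.25, 1.42, 1.57 and 1.8 FPKM in the NL retinas and 4.12, 6.47, 7.54, 4.71 and 4.56 FPKM in the LD retinas. Every LD retina exceeded every NL retina more than 2-fold (log2 fold change 1.71 ± 0.18, adjusted p = 5.34e-05). D730003I15Rik, which starts 6414 bases from Atf3, a stress-induced transcription factor, on the opposite strand, measured 3.8, 3.18, 2.86, 3.63 and 3.7 FPKM in the NL retinas and 10.4, 5.06, 6.36, 11 and 10.2 FPKM in the LD retinas. It rose by 1.24 ± 0.21 on the log2 scale (adjusted p = 0.00133), and Atf3 rose by 3.26 ± 0.21 (adjusted p = 2.31e-06).

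In some members that rose, the LD retinas fell into separate levels. Gm47887 measured 3.07, 1.67, 1.56, 1.71 and 2.63 FPKM in the NL retinas and 24.7, 3.96, 5.52, 19.3 and 6.8 FPKM in the LD retinas. Gm45619 measured 0.974, 1.69, 1.03, 1.43 and 1.39 FPKM in the NL retinas and 12.9, 3.36, 2.96, 12.4 and 3.23 FPKM in the LD retinas, and Gm38413 was 7.87 FPKM or more in LD-1 and LD-7 and 2.68 to 3.08 FPKM in the rest. LD-1 and LD-7 were the highest pair of LD retinas in 8 of the 12 members that rose, against 109 of all 200. Their myeloid marker sums were also the highest (both at least 86.0 FPKM, against 42.4 to 60.3 FPKM in the others). These retinas differed in other lists too. Their sums of bipolar markers were the lowest of the LD retinas (266 and 271 FPKM, against 316 to 378 FPKM). The same held for the sums of amacrine and ganglion, pigment epithelium, endothelial and blood markers. The part of these differences in the values was not tested. Gm47887 (log2 fold change 2.14 ± 0.48, adjusted p = 0.00719) and Gm45619 (2.04 ± 0.44, adjusted p = 0.00592) had adjusted p values of 0.0320 and 0.0319 with the closest pairs averaged, and Gm38413 (1.86 ± 0.32, adjusted p = 0.00143) had 0.0149. Gm47887 fell short of the threshold in 14 of 20 refits, among them limma-voom (adjusted p = 0.0178) and those without LD-1, LD-7, LD-8 or any 1 NL retina (0.0102 to 0.0201). Gm45619 fell short in 11, among them limma-voom (adjusted p = 0.0162) and those without LD-7 or any 1 NL retina (0.0104 to 0.0168), so neither call is firm. Gm45619 shares 56.6% of its exon bases with Lin7b on the opposite strand (log2 fold change 1.72, adjusted p = 0.00266), so reads of the pair cannot be told apart.

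Gm38399, inside Nav1 on the same strand, rose by 1.31 ± 0.15 (adjusted p = 0.0001) and Nav1, a neuron navigator gene, had a log2 fold change of 0.74 (adjusted p = 0.00108). 2900052N01Rik rose by 1.08 ± 0.15 (adjusted p = 0.000369). Gm45605 rose by 1.08 ± 0.12 (adjusted p = 9.02e-05), and its nearest coding gene Slc47a1, an organic cation transporter, by 1.59 (adjusted p = 6.03e-06). Gm14268, named here after its values were seen, had the second largest gain in FPKM, from 9.0 ± 4.92 to 20.6 ± 2.55, but with NL values of 1.48 to 13.6 FPKM its adjusted p was 0.0495.

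Lists of noncoding RNAs with described roles were then read member by member. Snhg11, Crxos and Tunar in these lists are annotated as protein-coding in the deposited data. Among 6 hosts of small nucleolar RNAs, Snhg12 (log2 fold change 0.58 ± 0.11, adjusted p = 0.00217) and Snhg18 (0.63 ± 0.10, adjusted p = 0.000824) were higher in all LD retinas. Snhg20 (0.09 ± 0.10), Epb41l4aos (-0.06 ± 0.10), Snhg6 (0.34 ± 0.18) and Snhg10 (-0.31 ± 0.14) did not pass the test. Of all 17 such hosts tested, members or not, 6 were higher (35.3%, against 14.5% of all genes) and 1 lower (5.88%, against 13.4%) at an adjusted p under 0.05 and none passed both thresholds. Of the 14 miRNA hosts tested, 2 were higher (14.3%) and 3 lower (21.4%) at that level, of the 9 imprinted RNAs 1 was higher (11.1%) and 3 lower (33.3%), and none of either list passed both thresholds.

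Of the 21 genes tested from the retinal and neural list, 3 fell past both thresholds, against 2.37% of all genes. These were Rncr4, Vax2os and Crxos, the last of which is annotated as protein-coding. At an adjusted p under 0.05, 7 of the 21 were lower (33.3%, against 13.4% of all genes) and 3 higher (14.3%, against 14.5%). The median log2 fold change of the list was -0.15. Otx2os1, opposite to the photoreceptor and bipolar factor gene Otx2, fell from 14.2 ± 0.847 to 8.77 ± 1.62 FPKM (log2 fold change -0.71 ± 0.12, adjusted p = 0.00126), and Otx2 had a log2 fold change of -0.66 (adjusted p = 5.34e-06). Otx2os1 shares 19.2% of its exon bases with other genes. Miat (0.23 ± 0.11, adjusted p = 0.136) and Lhx1os (-0.28 ± 0.17, adjusted p = 0.271) did not pass the test. Of 9 stress and immune RNAs tested 2 rose past both thresholds, Neat1 among them, against 4.13% of all genes. At an adjusted p under 0.05, 5 of the 9 were higher (55.6%, against 14.5%) and 0 lower (against 13.4%). Of 6 RNAs of nuclear bodies and chromatin Neat1 alone rose past both thresholds, so the same call counts in both lists. At an adjusted p under 0.05, 1 of the 6 was higher (16.7%) and 2 lower (33.3%).

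**Figure D4:**
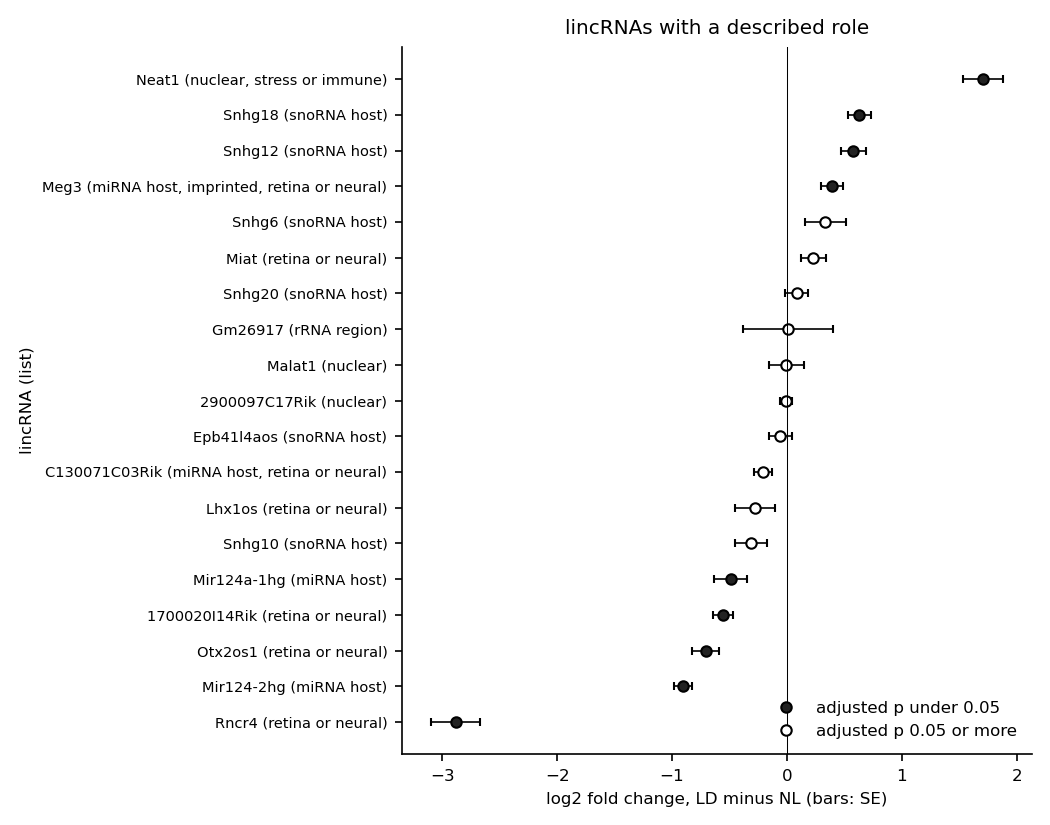
The log2 fold change (LD minus NL, x axis, bars SE) of each member that is in a list of described roles, with filled points where the adjusted p was under 0.05. Neat1 lies farthest to the right at 1.71 and Rncr4 farthest to the left at -2.89.

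Gm26917 lies in a repeat of ribosomal RNA sequence, and its level can follow leftover ribosomal RNA. It ranged from 8.10 to 39.7 FPKM in NL and from 11.5 to 22.6 FPKM in LD (log2 fold change 0.01 ± 0.39, adjusted p = 0.988), with Gm42418 and AY036118 of the same list at 0 in all retinas. Without it the counts of members that rose and fell were 12 and 21 as before.

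Although annotated as intergenic, 35 members overlapped a protein-coding gene, 26 on the opposite strand and 9 on the same strand, 78 others lay within 5 kb of such a gene, and 87 were farther away. Across members, the log2 fold change followed that of the nearest coding gene most closely where they overlapped: Pearson's r was 0.98 over 22 on the opposite strand and 0.93 over 7 on the same strand. Without the 2 genes farthest from the median, r was 0.84 over 20 and 0.70 over 5. It was 0.81 over 18 that follow the gene within 5 kb on the same strand (0.68 without 2), 0.36 over 38 that start upstream within 5 kb on the opposite strand (0.24 without 2), 0.29 over 12 upstream within 5 kb on the same strand (0.48 without 2), -0.36 over 9 downstream within 5 kb on the opposite strand (0.10 without 2) and 0.19 over 75 farther away (0.12 without 2). These are descriptions across genes, which share libraries and, where they overlap, may share reads.

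Of 30 members past both thresholds with a tested neighbour, 25 had a neighbour that moved in the same direction by sign, 7 a neighbour past both thresholds the same way and 1, Gm40477 beside Fos, the opposite way. Of all protein-coding genes tested, 7.50% passed both thresholds. How often the neighbours of the other members shared their sign was not counted, so no excess is read from the 25. Of the 136 members whose exons share no base with another gene, 8 rose and 20 fell. Of the 63 that share bases, 4 rose and 1 fell. Over all 200 members 6.0% rose and 10.5% fell, against 4.13% and 2.37% of all genes. Those that fell thus lay almost all among members without shared exon bases, a difference that was not tested. The 102 that overlap no other gene held 7 that rose and 12 that fell, and the 98 that overlap another gene held 5 and 9. The changes were thus not limited to members that overlap other genes.

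**Figure D5:**
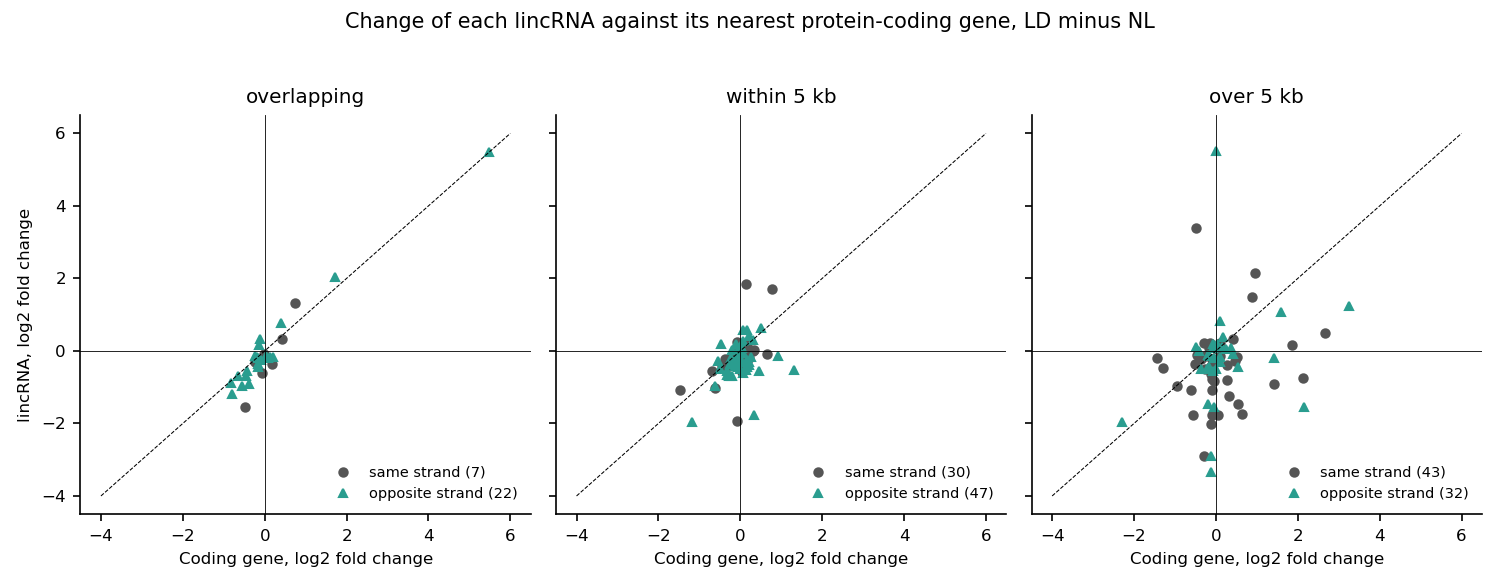
The log2 fold change of each lincRNA (y axis) is plotted against that of its nearest protein-coding gene (x axis) for overlapping pairs, pairs within 5 kb and pairs over 5 kb apart, on the same strand (circles) or the opposite strand (triangles), and the dashed line marks equal change. Overlapping pairs lie near the line, with 9330175E14Rik at 5.47, and more distant pairs scatter.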

How the data were processed

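RNA-seq libraries of 10 neural retinas were made by the authors with a poly(A) kit that does not mark strand. The authors deposited FPKM per gene, together with the gene's length in bases, biotype and position. The submitters' processing notes name Bowtie2 2.0.6, TopHat2 2.0.9 and the build mm8, whereas the deposited positions matched GENCODE M21 (GRCm38) for 53585 of 54495 shared gene IDs and for 193 members. The counter, the annotation and its strand setting are not given in the sources used here. FPKM times length gave whole reads (100.0% of values within 0.01) once a factor per retina (0.951 to 0.968 in NL, 1.04 to 1.07 in LD) was taken into account, so depth was recovered.

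LincRNAs of chromosomes 1 to 19 were ranked by mean FPKM over all retinas, and the 200 highest were kept. LD was compared with NL by limma 3.58.1 (R 4.3.3) with a mean-variance trend on log2(FPKM + 0.1), over 24508 genes with at least 0.1 FPKM in 5 retinas. Fold changes are on that scale, which understates changes of low genes, and p values were adjusted over all genes (Benjamini-Hochberg). A change past both thresholds means an adjusted p under 0.01 and more than 2-fold. On simulated data, 193 of 200 altered genes were recovered with 2 false calls among 23624 genes. These counts were drawn independently for each retina with the same dispersion for every gene, so they held no close pairs of retinas. Only genes that were not low were altered, each by more than 2-fold. The simulation thus checked the procedure and gives no error rate for the calls reported here. Nothing in the labels ties retinas to animals, so p values measure the spread between these retinas, which may in part be technical.

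Named were the 20 most abundant members, the 10 largest increases and 10 largest decreases past both thresholds without overlap of the groups, members in the noncoding lists, the 3 members inside and 3 lincRNAs outside the limit, and the nearest coding genes. The members and lists were chosen with earlier results of these data known. Other tools were Python 3.11.15, pandas 2.3.3 and scipy 1.17.1. Alternatives were other pseudocounts, filters, scalings, limma-voom on the recovered reads, other limits for the members, a replicate block, averaging of the closest pairs of retinas and leaving out each retina.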

Additional observations from a re-analysis of the deposited data

Results flagged for a closer look

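In 6 of the 100 groups of 5 values checked for the named members, 1 retina stood apart from the other 4 by Dixon's gap test, and chance alone would give about 5. The highest NL value of A330094K24Rik, 51.9 FPKM, came from NL-8, while its other NL values spanned 42.3 to 44.4 FPKM. For Gm3764 the lowest came from NL-1, with 2.20 FPKM next to 3.07 to 3.19 FPKM elsewhere in NL. Gm38413 had 1.45 FPKM in NL-8, above its remaining NL values of 1.04 to 1.08 FPKM. Gm33843 had 8.77 FPKM in NL-4, below the 11.9 to 12.8 FPKM of the rest. Snhg12 reached 16.4 FPKM in LD-8, above the 11.9 to 12.4 FPKM of the remaining LD retinas. 4930434O05Rik had a single read in NL-1 (0.121 FPKM) and none in the other NL retinas. In each of these genes the NL and LD values did not overlap.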

How the results depend on the processing

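Over 20 refits of each of the 50 named members, 961 values kept their side of the threshold, 33 fell short of it (Gm47887 in 14, Gm45619 in 11, Gm30684 in 3, Gm38413 in 2, and A930031H19Rik, Gm36677 and F630040K05Rik in 1 each, the last with the replicate block at an adjusted p of 0.0114), 5 passed it (Gm15706) and 1 turned: quantile normalization gave Malat1 a log2 fold change of 0.67. Uncalled members changed sign in 31 of those refits. Leaving out 1 retina gave 10 to 12 members that rose and 17 to 26 that fell, 17 to 21 higher and 61 to 80 lower at an adjusted p under 0.05, and medians of -0.26 to -0.20. Without the factor per retina, 29 members were higher at that level and the median log2 fold change of the members was -0.091. The retinas share replicate numbers 1, 4, 7 and 8 between groups. Deviations of same-numbered retinas from their group means correlated weakly (0.06, 0.07, -0.01 and -0.09). Only for number 4 was the same-numbered LD retina the closest match of the NL retina. With so few retinas, and close pairs within groups, this cannot exclude a pairing by number. With a replicate block over these 8 retinas 11 members fell past both thresholds, and without the block the same 8 retinas gave 14, with 47 lower at an adjusted p under 0.05. Both counts rest on fewer retinas. Choosing the 200 by the NL mean gave 4 that rose and 10 higher at an adjusted p under 0.05, and choosing them by the LD mean gave 8 that fell and 29 higher at that level. The 100 most abundant held 5 that rose and 9 that fell (11 and 39 at an adjusted p under 0.05), and the 400 most abundant 21 and 35 (42 higher). The 102 members that overlap no other gene held 7 and 12 (10 and 31). The 136 that share no exon base, a setting chosen after seeing the data like that without Gm26917, had 12 higher at an adjusted p under 0.05. Counts over fewer or more members differ in part by construction. Limma-voom on the recovered reads gave 10 that rose and 22 that fell. Members near the limit of 2.69 FPKM had few reads, and 3 members had under 3 reads in some retina.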
